A study of Rattus norvegicus with 16 samples.

Results

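Exon-level probe sets with a much lower signal in embryonic kidneys of the spontaneously hypertensive rat (SHR) than in those of the Munich Wistar Frömter rat (MWF) are described here. Members were selected on the measured intensities themselves: a probe set was a member if its mean over the 4 MWF arrays exceeded its mean over the 4 SHR arrays by at least 1.5 on the log2 scale and its lowest MWF value lay above its highest SHR value. Of 213067 exon-level probe sets, 401 met this rule, which is 0.188% of the table. MWF, an inbred strain with albuminuria and few nephrons, was sampled at E15.5, and SHR, an inbred hypertensive strain, at E16.0, each as 4 samples of male kidney with no treatment. Strain and embryonic day cannot be told apart, and the labels do not say whether samples came from separate animals, litters or pools. The same arrays were also summarised at gene level, where some genes have more than 1 value. The gene level is thus a second summary and not a second measurement. Because the members were chosen by the measured MWF minus SHR contrast, their differences are a description and carry no test.

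On this kind of array a gene is covered by many short probes spread over its exons. A probe set averages the few probes that lie in 1 stretch of the transcript, and a gene-level value pools the stretches assigned to it. The signal of a stretch depends on how much RNA carries it and on how well that RNA pairs with the probes. A gene whose RNA is scarcer throughout is therefore lower in all its stretches, whereas alternative first exons, splicing, or a base difference beneath the probes can touch 1 stretch and leave the others alone. The probe sequences and the genomes of the strains were not analysed here, and which of these applies to a member was not tested.

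Kidney identity was checked with 9 marker genes, of which 8 were measured at gene level and 7 of these lay above the median level of all genes. Their mean lay between 9.54 and 9.72 (log2) on the MWF arrays and between 9.34 and 9.55 on the SHR arrays. SHR replicate 2 stood apart from its strain in other cell types. The mean of 5 sympathoadrenal genes was 6.23 there and between 10.49 and 10.84 on the other SHR arrays, against 6.32 to 7.98 in MWF. Over the members the median level of SHR replicate 2 lay among those of the other SHR arrays. The rule kept every SHR array below every MWF array at a member, so these levels cannot show whether this array matters. The median level of the 401 probe sets was 6.77 on SHR replicate 2, and 6.94, 6.59 and 6.52 on SHR replicates 1, 3 and 4. On the MWF arrays it was between 8.93 and 9.09. Without SHR replicate 2 the rule found 423 probe sets, and 381 of these were among the 401.

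Probe-level sequences were not part of the data used, so the sequences shown belong to the genes in which many members, or members of both directions, came together. They are the 250 bases upstream of the annotated start (RefSeq, GRCr8) of the neighbouring genes Cd36 and Cd36l1, whose probe sets moved in opposite directions, and of Rhd and Rhag, red cell genes that were higher in MWF at every probe set. Each is written 5′ to 3′ on the strand of its gene. Capitals mark AGATAA (or TTATCT on the other strand), which is among the letters bound by the GATA factors of red cell precursors. Only this string was searched, and other forms that these factors may bind were not. Cd36 lies at chr4:18246332-18246581 (+), Cd36l1 at chr4:18316556-18316805 (+), Rhd at chr5:152370950-152371199 (+) and Rhag at chr9:27594391-27594640 (-).
Cd36: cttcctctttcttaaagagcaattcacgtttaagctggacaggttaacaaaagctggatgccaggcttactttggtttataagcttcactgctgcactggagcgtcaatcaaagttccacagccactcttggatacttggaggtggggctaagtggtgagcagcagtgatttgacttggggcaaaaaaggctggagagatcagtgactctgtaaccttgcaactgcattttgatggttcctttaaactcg
Cd36l1: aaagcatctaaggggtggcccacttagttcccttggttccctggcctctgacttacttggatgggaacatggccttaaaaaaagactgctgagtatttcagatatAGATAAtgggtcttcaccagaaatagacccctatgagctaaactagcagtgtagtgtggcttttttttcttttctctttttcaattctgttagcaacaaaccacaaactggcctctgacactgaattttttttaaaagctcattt
Rhd: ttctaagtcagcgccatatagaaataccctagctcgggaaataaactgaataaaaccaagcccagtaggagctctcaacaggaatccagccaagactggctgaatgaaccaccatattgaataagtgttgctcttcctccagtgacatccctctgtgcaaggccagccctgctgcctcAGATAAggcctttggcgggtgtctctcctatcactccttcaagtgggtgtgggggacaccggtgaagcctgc
Rhag: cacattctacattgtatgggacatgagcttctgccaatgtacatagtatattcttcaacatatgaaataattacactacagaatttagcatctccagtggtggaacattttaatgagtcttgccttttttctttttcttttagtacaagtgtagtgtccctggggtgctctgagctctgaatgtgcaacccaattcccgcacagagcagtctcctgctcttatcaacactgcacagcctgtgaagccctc
The motif occurred once in the windows of Cd36l1 and Rhd and had no match in those of Cd36 and Rhag, and 2759 of 27457 promoter windows of this length, 10.05%, held it. The windows of Cd36 and Cd36l1 shared 127 of 250 bases in a global alignment. What unrelated windows share in such an alignment was not measured, so this number does not show related upstream sequence. The windows of Rhag and Rhd also held ttatca and ctatca, which read TGATAA and TGATAG on the other strand and were not counted. The lack of a match therefore does not show that a window is without letters these factors bind. A match is a description of the letters only.

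The size of the differences and the lack of overlap were set by the rule. The members' median difference was 2.01 on the log2 scale, 4.03-fold, and the quartiles were 1.69 and 2.54. At least 2 was reached by 202, at least 3 by 63, at least 4 by 21 and at least 5 by 6, with 5.73 the highest. The median over all probe sets was 0.01. The median gap between the lowest MWF and the highest SHR value was 1.37. The median SD within a strain was 0.22 for MWF and 0.31 for SHR among the members, and 0.18 and 0.19 among all probe sets. Member levels in MWF had a median of 8.99, above the 7.93 of all probe sets, and in SHR a median of 6.69. In SHR, 47 members lay among the dimmest 10% of all probe sets (mean under 5.02), and in MWF none did. Another 44 probe sets differed by at least 1.5 but overlapped between strains. The mirror rule, lower in MWF, found 483 probe sets or 0.227%.

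At the threshold the values were continuous. The 3 named members just inside it were probe sets of Bub1b, a mitotic checkpoint kinase gene, at 1.506, and of the protein kinase gene Pkn3 and the RNA decay gene Skic3, at 1.503 and 1.502. The 3 named probe sets just outside it belonged to Mex3a at 1.499, Dnai4 at 1.492 and Rhag at 1.489. Of all exon-level probe sets 0.892% were higher in MWF at a limma adjusted p under 0.05, and 371 of the 401 members were among them. Since both rest on the same contrast, nothing is read from that share.

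Most genes were hit once. A single gene symbol was annotated to 342 of the 401 members, several symbols to 6 and no symbol to 53. The 342 belonged to 272 genes, or 1.64% of the 16582 named genes on the table, and 234 genes (86.0%) had exactly 1 member. There were 25 genes with 2 members, 2 with 3, 5 with 4, 4 with 5 and 2 with 6. Of the mirror rule's 230 genes, 174 (75.7%) had 1. Genes with a member had a median of 17 probe sets, against 8 for all named genes. The table lists some probe sets more than once with identical values on all 8 arrays, 715 rows in all. Among the members 4 rows were such repeats, 3 of Rhag and 1 of Znrd1as1, so 397 distinct measurements remained. The 59 members without a single symbol had a median difference of 2.16, and 13 of them reached 3.

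The other probe sets of a gene hit seldom came near the difference of its members. They are by definition those that did not meet the rule, so lower differences among them are partly built in. The counts that follow are a description. The 272 genes had 6035 other probe sets, with a median difference of 0.06 and quartiles of -0.10 and 0.27. Of these, 60.1% lay above 0 and 11.7% at or above 0.5. In genes without a member 51.0% lay above 0 and 3.38% reached 0.5, and over all exon-level probe sets 3.9% did. Among the 263 genes with at least 3 other probe sets, the median of the others was under 0.5 in 233 (88.6%), between 0.5 and 1 in 23, and at least 1 in 7. The 7 were Rhag, Rhd, Slc4a1, the histamine-synthesising enzyme gene Hdc, Mamdc2, Sync and Vom2r16. Of these, Hdc, Mamdc2, Sync and Vom2r16 are named for their values and not by the naming rule. Arrays of the same strain varied widely in Hdc. Its gene level was 8.22 ± 1.33 in MWF and 6.99 ± 1.21 in SHR (SD), and the strains overlapped. Replicates 1 to 4 read 9.30, 9.15, 6.42 and 8.00 in MWF and 8.58, 7.06, 5.65 and 6.67 in SHR. The order by replicate number was thus the same in both strains. Of the 229 such genes with 1 member, 92.1% had others with a median under 0.5. Of the 10 such genes with 3 or more members, 3 did, namely Atp8a1, Hmcn1 and Trpm7. The plot of members against the other probe sets of their gene shows this spread.

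**Figure D1:**
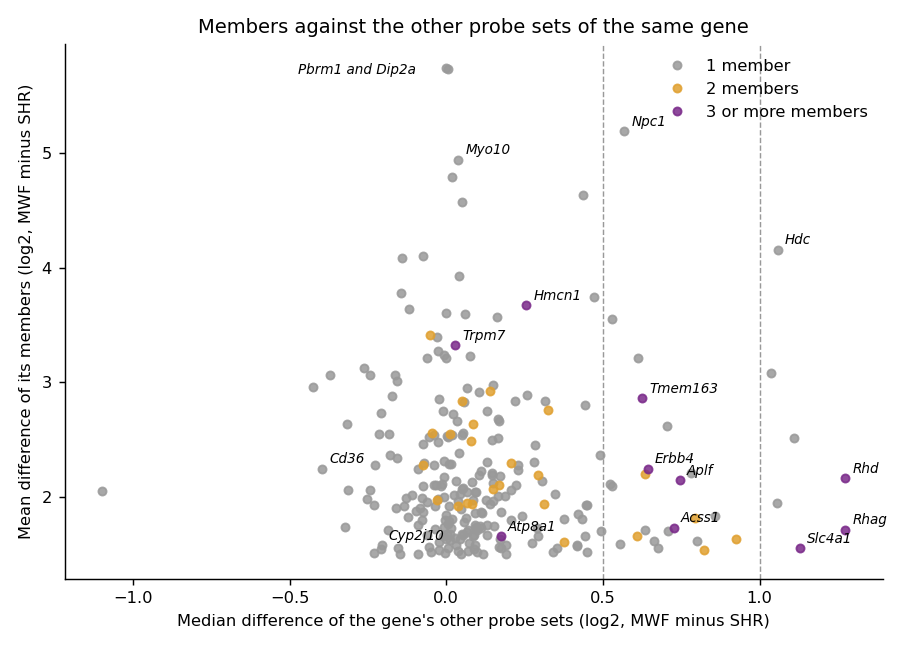
Mean difference of a gene's members (y axis, log2, MWF minus SHR) against the median difference of its other probe sets (x axis, log2), 1 point for each of the 263 genes with at least 3 others, coloured by the number of members. Dashed lines mark 0.5 and 1. Most points stand near 0 on the x axis, among them Dip2a and Pbrm1 at 5.73 on the y axis, while Rhag, Rhd, Slc4a1 and Hdc lie to the right of 1.

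The 2 largest differences came from single probe sets in genes whose other probe sets had a median near 0. In Dip2a the member read 10.42, 10.47, 10.21 and 10.37 (log2) on MWF replicates 1 to 4, and 4.57, 4.58, 4.75 and 4.64 on SHR replicates 1 to 4. All MWF arrays were high and all SHR arrays lay among the dimmest 10% of the table, a difference of 5.73. The other 85 probe sets of Dip2a had a median of -0.001, 42 above 0, with a highest of 1.68. In Pbrm1, a subunit gene of a chromatin remodelling complex, the member read 9.89, 10.05, 9.94 and 9.95 in MWF and 3.95, 4.21, 4.53 and 4.22 in SHR. Its difference was 5.73 as well. Its other 32 probe sets lay between -0.20 and 0.43.

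Npc1, the lysosomal cholesterol transporter gene, had 1 member at 5.19, with 9.76, 9.71, 9.32 and 9.15 in MWF and 4.33, 4.05, 4.47 and 4.34 in SHR. Here the gene's other probe sets leaned the same way, with a median of 0.57 and 23 of 24 above 0, and the gene level differed by 0.73. Myo10, a filopodial myosin gene, had 1 member at 4.94, reading 11.47, 11.62, 11.73 and 11.75 in MWF and 6.85, 6.74, 6.40 and 6.83 in SHR. Its other 38 had a median of 0.04, and the gene level differed by 0.19. For Exoc2, a subunit gene of the exocyst that tethers secretory vesicles, the member was at 4.79, with a median of 0.02 over 30 others. Another probe set of Exoc2 met the mirror rule at -2.40, with 9.05 in MWF and 11.46 in SHR. In Gtf2h3, a gene of transcription factor TFIIH, the member was at 4.63. Its 12 others had a median of 0.44, 11 above 0. In Cacna1f, a calcium channel gene known from the retina, it was at 4.57 with 47 others at a median of 0.05, and in Ddx19a, an RNA helicase gene, at 4.08 with 16 others at -0.14, 1 of which met the mirror rule at -1.70. C2cd3, a centriole gene needed for cilia, had a member at 4.94 and another at 1.89. Its other 32 probe sets had a median of -0.05. Of the 15 genes with a member at or above 4 and at least 3 others, the others had a median under 0.5 in 12. The exceptions were Erbb4, Hdc and Npc1.

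**Figure D2:**
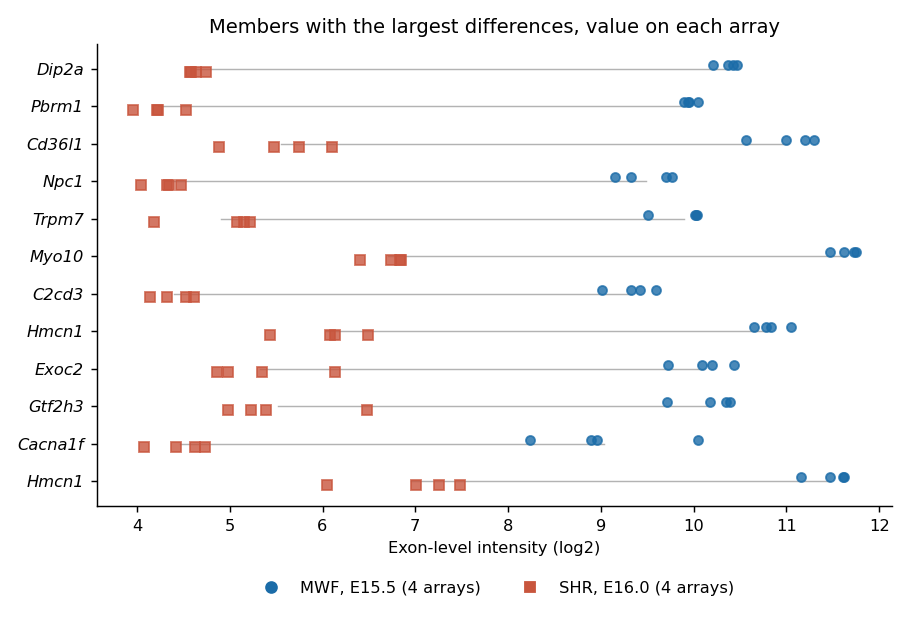
Intensity on each array (x axis, log2) of the 12 named members with the largest differences (y axis, gene of the probe set). Circles are the 4 MWF arrays, squares the 4 SHR arrays, and the grey line joins the strain means. No row overlaps between strains, and Dip2a, Pbrm1 and Npc1 have all SHR values under 5.

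Another group of genes was lower in SHR along a stretch of consecutively numbered probe sets. Probe sets of a gene follow each other by number, and their positions in the transcript were not looked up. Tmem163, a zinc transporter gene of vesicle membranes, had 6 members among 9 probe sets, numbered as the first 6. The member with the largest difference read 8.95, 9.15, 8.86 and 8.84 in MWF and 5.05, 5.46, 5.34 and 5.30 in SHR. The 6 members lay between 1.60 and 3.66. The remaining 3 were at 0.92, 0.63 and 0.04, so that the last probe set was at 7.09 ± 0.25 in MWF and 7.05 ± 0.28 in SHR. At gene level the strains stood at 8.50 ± 0.10 and 6.41 ± 0.05 (SD, n = 4), 4.24-fold apart.

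Atp8a1, a phospholipid flippase gene, showed a step. Its last 11 of 38 probe sets all lay between 1.05 and 1.93, and the last 5 of these were the members. The first 27 had a median of 0.09 and a highest of 0.52. The last probe set read 10.92, 10.79, 11.13 and 10.84 in MWF and 9.31, 9.38, 8.45 and 8.84 in SHR. The second probe set of this gene went the other way, at -2.19, with 6.03 in MWF and 8.22 in SHR. Atp8a1 had no gene-level probe set that carried its name.

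Hmcn1, which encodes the extracellular matrix protein hemicentin, had 4 members in 2 places among 109 probe sets. The 78th and 79th lay at 4.79 and 4.52, and the 10th and 13th at 2.44 and 2.93. The 78th read 11.05, 10.65, 10.83 and 10.78 in MWF and 6.49, 5.44, 6.08 and 6.13 in SHR. The other 105 had a median of 0.26, 98 above 0. In Trpm7, the gene of a magnesium channel fused to a kinase, 3 separate probe sets of 41 were members, at 4.99, 2.82 and 2.16. The other 38 had a median of 0.03 and the gene level differed by 0.25.

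In Erbb4, a neuregulin receptor gene, 5 of 29 probe sets were members. The strongest read 9.25, 8.95, 9.11 and 8.89 in MWF and 5.17, 4.53, 5.25 and 5.21 in SHR, a difference of 4.01, and the other 4 lay between 1.52 and 2.28. The rest of the gene was also lower in SHR, with a median of 0.64 and 23 of 24 above 0, and the gene level was at 8.03 ± 0.17 in MWF and 7.12 ± 0.23 in SHR. Aplf, a DNA break repair gene, had 4 members of 13 probe sets, at 1.59 to 3.01, and all 9 others lay above 0 with a median of 0.74. Acss1, a mitochondrial acetyl-CoA synthetase gene, had 5 of 14, at 1.56 to 1.93, and all 9 others lay above 0 with a median of 0.73. The profiles drawn for 9 genes set these shapes side by side.

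**Figure D3:**
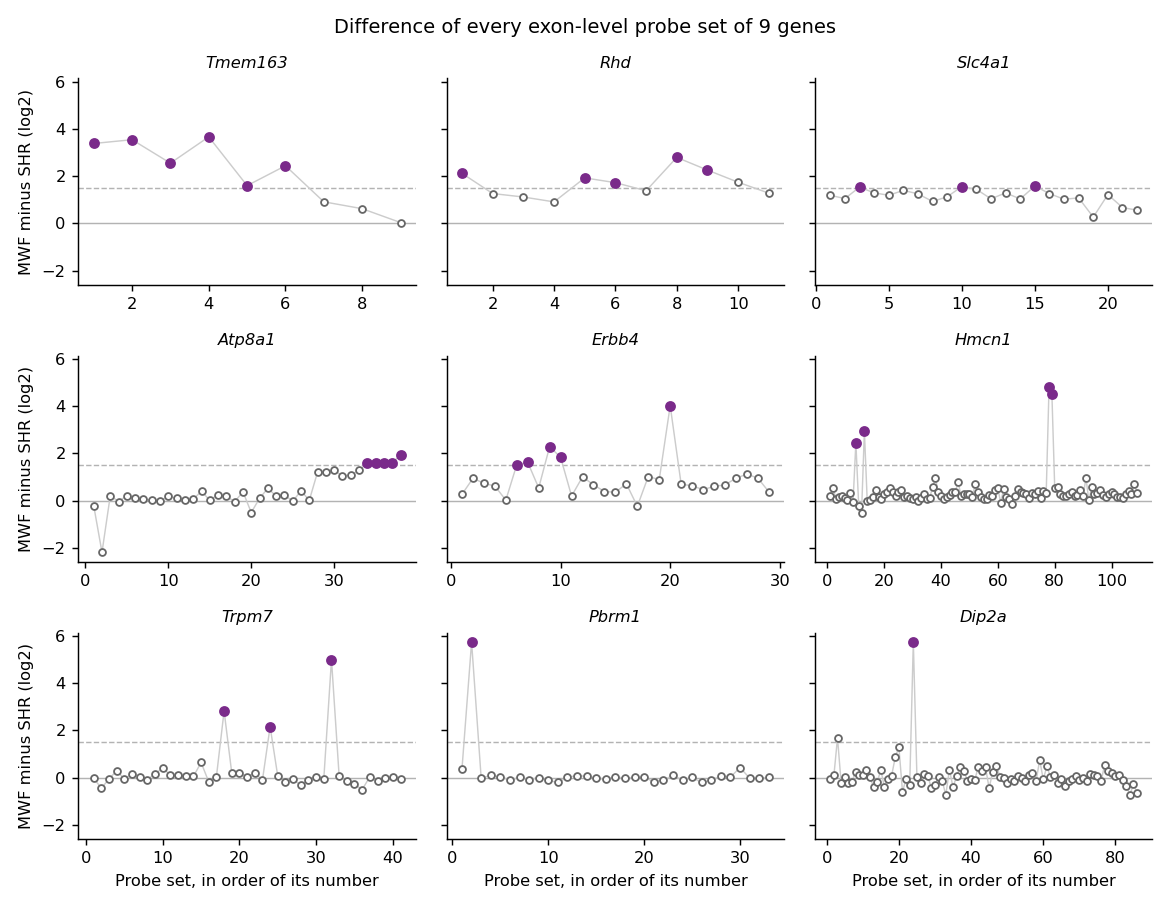
Difference (y axis, log2, MWF minus SHR) of every exon-level probe set of 9 genes, in order of probe set number (x axis). Filled points are members, open points the others, and the dashed line is at 1.5. Rhd and Slc4a1 stay above 0 throughout, Atp8a1 steps up at its 28th probe set, and Pbrm1 and Dip2a have 1 member each at 5.73.

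Cd36, the gene of a fatty acid translocase and scavenger receptor, and its neighbour Cd36l1 held members and mirror members within a run of 13 probe sets. Their upstream windows are printed above. A defective Cd36 gene is known from SHR as background. Both genes are related in sequence, so a probe set may also bind RNA of the other. The first 3 probe sets of Cd36 differed little, by -0.02, 0.19 and 0.43. The fourth was a member, with 8.34, 8.38, 7.02 and 8.22 in MWF and 6.03, 6.60, 5.02 and 5.31 in SHR. The next 6 were annotated to Cd36l1, and 4 of them were members, at 3.14, 5.46, 2.43 and 3.51. The other 2, at 0.51 and 0.93, did not meet the rule. At the first of these MWF read 8.12, 6.83, 6.81 and 6.47 and SHR 4.24, 6.94, 7.66 and 7.34. There SHR replicates 2 to 4 lay above MWF replicates 2 to 4, and the sign of the mean difference rested on replicate 1 of the strains.

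The strongest Cd36l1 member read 11.20, 11.30, 10.57 and 10.99 in MWF and 6.11, 4.89, 5.75 and 5.47 in SHR. MWF replicate 3 was the lowest MWF array at this probe set and at the Cd36 member. The last 3 probe sets, again of Cd36, went the opposite way. The final one read 4.49, 4.46, 4.66 and 4.58 in MWF and 9.79, 9.17, 9.94 and 9.42 in SHR, a difference of -5.03. The first of the 3 was at -3.03, and the one between them at -0.77. The gene-level value named Cd36 pooled these directions to 0.80, with 8.28, 8.22, 7.37 and 7.85 in MWF and 6.99, 6.95, 7.42 and 7.18 in SHR, and the strains overlapped in it. Of the 12 genes with reported variants in SHR or related strains that were listed, all were measured, and Cd36 was the 1 with a member (8.33%, beside 1.64% of all named genes), with 1 of their 105 probe sets (0.952%, beside 0.188% of the table).

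**Figure D4:**
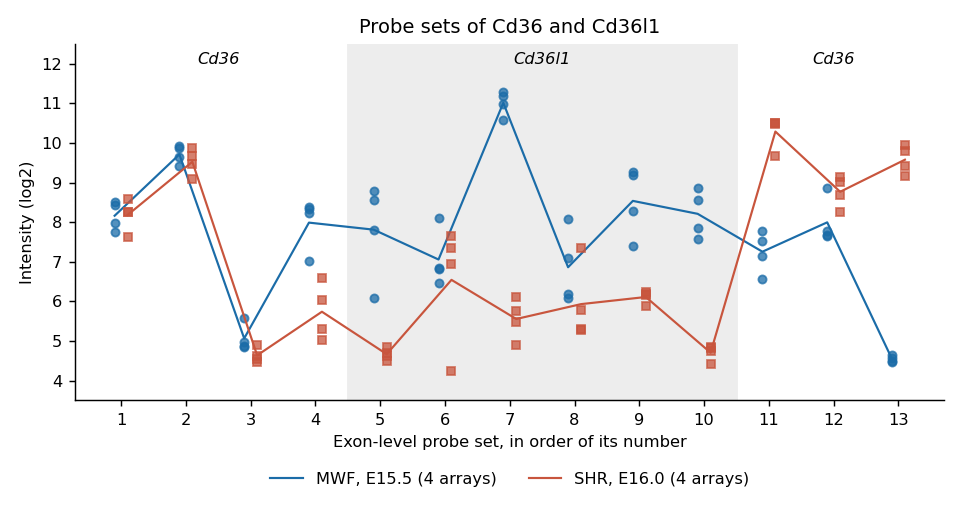
Intensity (y axis, log2) of the 13 exon-level probe sets of Cd36 and Cd36l1 in order of their number (x axis), with Cd36l1 shaded. Points are single arrays and lines join the strain means. The strains lie together over the first 3 probe sets, the MWF mean is higher from the fourth to the tenth, with overlap at the sixth and eighth, and the SHR mean is higher over the last 3, with 9.58 against 4.55 at the thirteenth.

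In all, 17 of the 272 genes hit held both a member and a probe set of the mirror rule, Cd36, Atp8a1, Exoc2 and Ddx19a among them. Of all 16582 named genes, 230 had a mirror probe set. Genes hit had a median of 17 probe sets against 8 for all named genes, so they had more occasions to meet either rule. Nothing is read from the count. Cyp2j10, of the arachidonic acid epoxygenase family, had 1 member at 1.58 and 5 mirror probe sets, down to -2.74, and the gene level differed by -0.71. It was the only gene hit that limma called lower in MWF at gene level. Kif23, a gene of the central spindle in dividing cells, had a member with 11.54, 11.08, 11.21 and 10.90 in MWF and 7.69, 8.25, 7.90 and 7.97 in SHR. A second probe set of Kif23 read 8.82, 8.87, 8.64 and 8.90 in MWF and 10.93, 11.03, 10.80 and 10.99 in SHR. Myof, a ferlin gene of membrane repair, had 1 member at 2.05 and 11 mirror probe sets between -2.03 and -1.55. Egfr, the epidermal growth factor receptor gene, and Hspg2 and Fras1, genes of basement membrane proteins, also held both. Kif23, Myof and these 3 genes were picked for mention after their values were seen.

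Of the 6 gene lists, the red cell list had the highest share of members. Of 17 listed genes 13 were measured, and their 89 distinct probe sets included 11 members (12.4%, against 0.188% of the table), 5 in Rhd, 3 in Rhag and 3 in Slc4a1. All 89 lay above 0, with a median of 1.08. Rhd and Rhag encode the Rhesus blood group complex, and Slc4a1 the anion exchanger band 3 of the red cell membrane. The strongest Rhd member read 8.89, 9.30, 7.56 and 8.93 in MWF and 6.23, 6.17, 5.43 and 5.68 in SHR. Rhag's strongest read 9.11, 9.48, 7.85 and 7.80 in MWF and 7.79, 7.22, 5.88 and 5.999 in SHR, so the lowest MWF array lay just above the highest SHR array.

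In these genes the members were the upper end of a shift along the whole gene. The 6 other probe sets of Rhd had a median of 1.27, the 9 distinct others of Rhag 1.27 and the 19 others of Slc4a1 1.13, and all of them lay above 0. The gene-level differences were 1.68 ± 0.33 (SE from limma) for Rhd, 1.30 ± 0.35 for Rhag and 1.14 ± 0.30 for Slc4a1. The limma fit called that of Rhd but not those of Rhag and Slc4a1. It modelled strain alone, so variation that the strains share by replicate number counts as error in these SEs. At gene level Slc4a1 read 9.41, 9.83, 8.52 and 8.87 in MWF and 8.36, 8.41, 7.56 and 7.76 in SHR. The calls therefore do not rank the 3 genes. Globin genes had no member, and their median differences varied, at 1.21 for Hbg1, 1.10 for Hbz, 0.66 for Hbb, 0.15 for Hbe2, 0.12 for Hba-a2 and 0.09 for Hbe1. In these bulk samples, fewer red cells and less RNA per red cell cannot be told apart. The mean of 6 red cell markers, 2 of which were genes hit, lay between 8.33 and 9.55 on the MWF arrays and between 7.74 and 8.30 on the SHR arrays, all 6 above 0. MWF replicates 1 and 2 were the highest MWF arrays for this mean, at 9.21 and 9.55. SHR replicates 1 and 2 were the highest SHR arrays, at 8.30 and 8.29. The same held in both strains for the Rhag member given above, so this order by replicate number was not particular to MWF. The part of red cell content in these members was not tested. The differences of 7 liver markers were also all above 0, with a median of 0.76 beside 0.92 for the red cell markers, and their means overlapped, at 7.14 to 9.62 in MWF and 6.73 to 9.59 in SHR. From highest to lowest, the liver means fell in the order of replicates 1, 2, 4 and 3 in both strains. The part of liver RNA was not tested either.

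Of 32 listed genes of renal development and segments 29 were measured, and Plce1, Nphs1 and Cldn10 had 1 member each. That is 10.3% of these genes, against 1.64% of all named genes, and 0.617% of their 486 probe sets, against 0.188% of the table. The median over the 486 probe sets was 0.06. Plce1, a podocyte phospholipase gene mutated in nephrotic syndrome, had its member at 12.81, 11.90, 12.26 and 12.05 in MWF and 9.80, 10.08, 9.94 and 9.73 in SHR, a difference of 2.37. All 32 of its other probe sets lay above 0, with a median of 0.49. Nphs1, which encodes the slit diaphragm protein nephrin, had a member with 8.50, 8.27, 8.37 and 8.37 in MWF and 6.59, 6.68, 6.74 and 6.57 in SHR. Its other 34 had a median of 0.02 and the gene level differed by 0.15, so the strains were apart in 1 stretch. Cldn10, a tight junction gene of the thick ascending limb, had 1 member at 1.66 between neighbours at 1.01 and 1.46, and the rest between 0.01 and 0.59.

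In each of 3 families of variable genes 1 gene was hit, at 2.44% of histocompatibility, 4.35% of glutathione transferase and 1.32% of cytochrome P450 genes, beside 1.64% of all named genes. RT1-N2, a class I gene of the rat histocompatibility complex, was the 1 gene of 41 measured in its list, with 4 members of 6 probe sets. Its strongest read 9.87, 9.53, 10.16 and 10.28 in MWF and 5.90, 5.66, 5.59 and 6.41 in SHR, and the other 2 probe sets were at 1.34 and 0.67. Class I genes are near copies of each other, so a probe set may read several. Gstm6 was the 1 of 23 glutathione transferase genes, with 2 members of 7, at 1.61 and 2.28, and a gene-level difference of 1.33. Of 76 cytochrome P450 genes Cyp2j10 alone had a member. Outside these families, Znrd1as1 had 3 distinct members of 4, at 1.56, 1.59 and 1.73, and the fourth lay at 0.97.

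At gene level the members left little trace in most genes. Of the 272 genes, 211 had a gene-level probe set of their name, with a median difference of 0.23 where the median of all gene-level probe sets was 0.02 (the larger difference was taken for genes with several). It was under 0.5 in 158 genes, 0.5 to 1 in 32 and at least 1 in 21, and 22 lay below 0. The 7 at or above 1.5 were RT1-N2, Tmem163, Rhd, Gprc5c, Perp, Vom2r16 and Vom2r19, the last 4 again named for their values, and the whole gene level held 0.0795% of such probe sets without overlap. For Gprc5c and Vom2r19 the gene-level difference equalled that of the 1 exon-level member, at 1.58 and 1.56. Their other exon-level probe sets had medians of 0.42 and -0.02, and the other gene-level value of Gprc5c was 0.30. Where the other exon-level probe sets had a median under 0.5, the gene-level median was 0.19 over 179 genes. With others at 0.5 to 1 it was 0.92 over 21 genes, and with others at 1 or more 1.23 over 7. Gene-level differences were called higher by limma in 75 of the 211 (35.5%), against 3.18% of all gene-level probe sets, and did not overlap between strains in 107 (50.7%), against 7.36%. The gene level contains the members' own probes and the same contrast, so nothing is read from these shares.

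**Figure D5:**
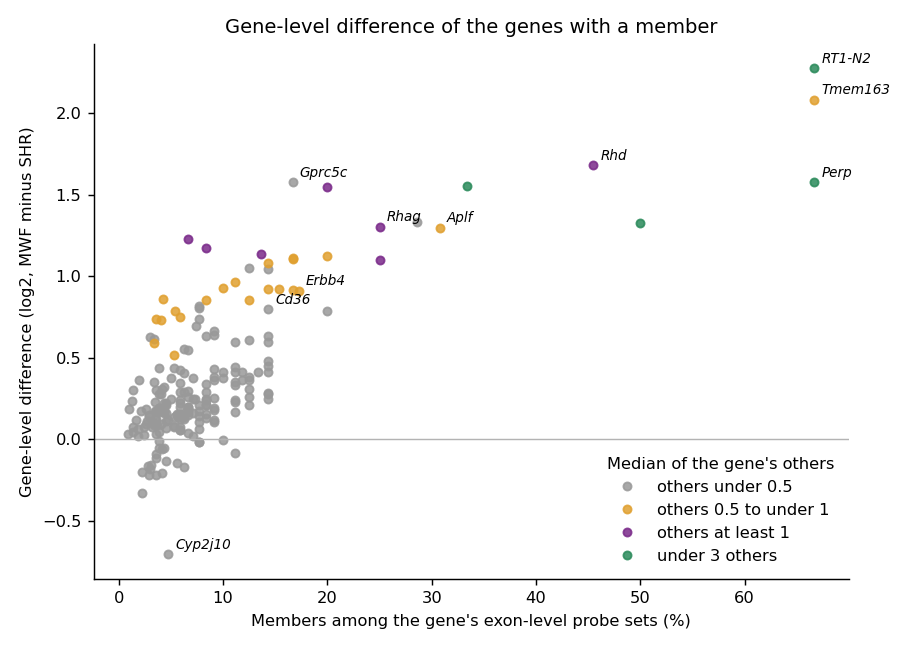
Gene-level difference (y axis, log2, MWF minus SHR) against the share of a gene's exon-level probe sets that were members (x axis, percent), for the 211 genes with both, coloured by the median of the other probe sets. RT1-N2 and Tmem163 lie highest, Cyp2j10 lies lowest at -0.71, and most genes with a small share lie under 0.5.

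The genes hit lay on every chromosome except Y, which had 1 named gene, in the gene order of GRCr8. Their share among the named genes of a chromosome ran from 0.621% on chromosome 15 (3 of 483) and 0.745% on X (4 of 537) to 2.66% on chromosome 16 (12 of 451), around 1.64% overall. Neighbouring genes were both hit in 10 pairs, 20 genes, and no run was longer than 2. Cd36 with Cd36l1 was one of the pairs. No test was made of this spread. The number of pairs that would arise by chance was not worked out, so the pairs show neither grouping nor its absence.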

How the data were processed

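Labelled RNA of 8 kidney samples was hybridised to Affymetrix rat gene ST arrays. The deposited values are log2 intensities per probe set, at exon and at gene level. Per the submitters' processing notes Partek was used; the sources used here name no settings, background correction, normalization or genome build. Array medians were 7.93 to 7.99 at exon and 8.17 to 8.21 at gene level, and the values were used as deposited.

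Symbols came from the platform annotation and were updated through RefSeq (GRCr8); 172924 exon-level probe sets had 1 symbol, 1661 several and 38482 none. The rule was applied to strain means. Strains were also compared with limma 3.58.1 in R 4.3.3 (linear model on strain, moderated by eBayes, Benjamini-Hochberg over all probe sets, adjusted p under 0.05). Its fit served for background counts and, at gene level, for the standard errors and calls of genes hit. The fit was tested on simulated data. The number of arrays limits precision.

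The members and the gene lists were chosen with earlier results of these data known. Named were the 12 genes with the most members, the 10 members with the largest differences, the 8 genes with 1 member farthest from at least 8 others, the 3 probe sets on each side of the threshold, and genes hit in the 6 lists, leaving out provisional and receptor gene names of the olfactory and vomeronasal families. Genes outside this are marked in the text. Alternatives were quantile normalization, median centring, a filter on dim probe sets, thresholds of 1 and 2, no overlap condition, leaving out each array, array weights and the replicate number as a block. Counting identical rows once was added after seeing the data.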

Additional observations from a re-analysis of the deposited data

Results flagged for a closer look

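Among 108 sets of 4 arrays of 1 strain, for the strongest member and the gene level of each named gene, 11 had 1 array far from the other 3 by Dixon's criterion, and chance gives about 1 in 20. At exon level, the Cd36 member read 7.016 on MWF replicate 3, against 8.22 to 8.38 on the others. Cldn10 read 7.027 on MWF replicate 1, against 7.60 to 7.71. Erbb4 read 4.528 on SHR replicate 2, against 5.17 to 5.25. Trpm7 read 9.508 on MWF replicate 4, against 10.01 to 10.04, and 4.178 on SHR replicate 4, against 5.08 to 5.22. Znrd1as1 read 9.632 on MWF replicate 4, against 9.88 to 9.93.

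At gene level, Plce1 read 9.48 on MWF replicate 3, against 9.20 to 9.24 on the other MWF arrays. Cldn10 read 7.488 on MWF replicate 1, against 7.83 to 7.86. Trpm7 read 10.45 on MWF replicate 1, against 10.20 to 10.23. Bub1b read 10.29 on MWF replicate 4, against 10.07 to 10.09. Exoc2 read 10.27 on SHR replicate 1, against 10.14 to 10.15. Cldn10 was low on the same array at both levels.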

How the results depend on the processing

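Scaling left the members nearly the same: quantile normalization gave 399, 397 of them shared, and median centring 401, 400 shared. Counting identical rows once gave 397, and dropping the overlap condition 445. The threshold sets the count by construction: 1045 probe sets in 613 genes at a difference of 1, and 202 in 146 genes at 2. Only probe sets above the median intensity left 185 in 148 genes. The genes whose other probe sets had a median of at least 1, 0.5 to 1 and under 0.5 then numbered 3, 45 and 539 at a threshold of 1. They numbered 13 (0.5 to 1) and 125 (under 0.5) at 2, and 4, 6 and 130 under the filter. Leaving out 1 array gave 377 to 475 members in 259 to 298 genes, with 4 to 13, 23 to 31 and 222 to 247 genes in these classes. The first class, 7 genes with all arrays, had 4 without MWF replicate 1, 13 without MWF replicate 3 and 11 without SHR replicate 1. The mean differences of the members of each named gene moved by less than 1 SD in all 310 alternatives tried and none reversed. For left-out arrays this was built in. The members were held fixed, the rule forbids a reversal, and dropping 1 of 4 arrays cannot move a mean by 1 SD. Nothing is read from it.

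The background counts were less stable. The 1901 exon-level calls ranged from 1116 to 1975 without 1 array, with 1131 (MWF replicate 2 left out), 1145 (MWF replicate 3), 1193 (MWF replicate 4), 1166 (SHR replicate 3) and 1116 (SHR replicate 4). The 680 gene-level calls ranged from 362 to 865, with 449, 370, 402 and 435 when MWF replicate 1, 2, 3 or 4 was left out, and 447, 448 and 362 when SHR replicate 1, 3 or 4 was. They were 397 after the filter on dim probe sets and 1057 with array weights. Without SHR replicate 2 the calls rose, to 1975 at exon and 865 at gene level. Fewer arrays or probe sets enter these fits. The causes of these changes, and of that with array weights, were not tested. With the replicate number as a block the counts were 1067 and 658. Same-numbered arrays correlated in their deviations at 0.08, -0.02, 0.08 and 0.13 at exon level and 0.28, 0.15, 0.10 and 0.16 at gene level. Not every array correlated best with its own number, so the numbers were not taken as pairs. These correlations ran over all probe sets and do not exclude a shared order in single genes. For the red cell markers, the liver markers and Hdc, replicates 1 and 2 lay above replicates 3 and 4 in both strains. Whether same-numbered samples belong together is not known.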
